A study of Caenorhabditis elegans with 14 samples.

Results

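The genes described here encode 9 enzymes, 5 of tryptophan breakdown and 4 of tyrosine breakdown, in whole C. elegans with normal or reduced insulin/IGF-1 signaling (rIIS). The 9 genes were chosen by name among 46856 annotated genes, with earlier results of these data known. They were tdo-2, kynu-1, kmo-1, haao-1 and nkat-1 of the tryptophan route, and tatn-1, hpd-1, hgo-1 and fah-1 of the tyrosine route. Exon reads were counted in 14 RNA-seq libraries of L4 or young adult worms, 2 libraries in each of 7 groups. All animals carried rrf-3(pk1426), which raises sensitivity to RNAi, so no group had a wild-type background. The control (C) was rrf-3(pk1426) on bacteria with the empty vector, and rIIS-C was rrf-3(pk1426);daf-2(e1368), with a moderate allele of the insulin receptor gene, on the same empty vector. The same double mutant was fed daf-16, skn-1 or hsf-1 RNAi (daf-16i, skn-1i and hsf-1i). Worms grew at 20 °C, and the groups marked (HS), namely C (HS), rIIS-C (HS) and hsf-1i (HS), were then held at 33 °C for 2 h. RNAi of hsf-1 was sequenced only after heat shock, so hsf-1i (HS) was compared with rIIS-C (HS).

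Most dietary tryptophan is broken down through kynurenine. TDO-2, a tryptophan dioxygenase, opens the indole ring, and KMO-1 (kynurenine monooxygenase), KYNU-1 (kynureninase) and HAAO-1 (hydroxyanthranilate dioxygenase) carry the product on to quinolinic acid, from which worms can make NAD. NKAT-1, a kynurenine aminotransferase, diverts kynurenine to kynurenic acid. In the other route TATN-1 (tyrosine aminotransferase) removes the amino group of tyrosine, HPD-1 and HGO-1 (hydroxyphenylpyruvate and homogentisate dioxygenases) oxidize and open the ring, and FAH-1 (fumarylacetoacetate hydrolase) splits the last intermediate into fumarate and acetoacetate. In C. elegans these routes are known to be active mainly in hypodermis and intestine. Loss of TDO-2 or TATN-1 is known to alter lifespan or dauer formation in worms, in the case of tatn-1 together with daf-2.

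On the WBcel235 assembly the 9 genes lay on 4 chromosomes. Of the tryptophan route, tdo-2 was on III (5917710 to 5919951, minus strand), kynu-1 on X (6107004 to 6109335, minus), kmo-1 on V (12068792 to 12070519, minus), haao-1 on V (9505689 to 9506983, plus) and nkat-1 on X (14138100 to 14140070, minus). Of the tyrosine route, tatn-1 was on X (14791059 to 14792643, plus), hpd-1 on III (10535548 to 10537503, plus), hgo-1 on I (9049539 to 9055335, minus) and fah-1 on X (6446832 to 6448908, minus). The genes had between 3 and 9 exons and a coding length of 846 to 1437 bases. At most 1 read per library of any member was not uniquely placed. The 3 gene models that overlap hgo-1 have an exon length of 0 in these data. Their 0 exon reads therefore cannot show whether hgo-1 shared reads with them. No gene model overlapped any other member.

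The libraries differed in ways that touch the comparisons. They held 4681170 to 22767301 exon reads. The share of exon reads across splice junctions was 9.39 to 9.89% in 6 libraries and 22.57 to 26.34% in 6 others, with 1 library of each group in each set except C (HS), whose libraries stood at 14.3 and 16.73%. The share of intron reads among all gene reads ran from 2.91 to 5.62% in 13 libraries, whereas replicate 2 of skn-1i stood apart at 12.75%. The effective library size (TMM) factors ranged from 0.658 in C (HS) to 1.63 in rIIS-C, so the scaling between groups is itself large. Beside the targeted genes, skn-1 fell on its RNAi from 128 ± 36 to 25.7 ± 0.62 CPM (exon reads scaled to library size; mean ± SD, n = 2) and hsf-1 from 38.1 ± 5.56 to 13.7 ± 0.207 CPM, both past the edgeR quasi-likelihood test (adjusted p = 5.61e-06 and 1.97e-04), while daf-16 stood at 67.9 ± 25.5 CPM in rIIS-C and 46.2 ± 7.77 CPM in daf-16i and did not pass (adjusted p = 0.283). The 6 markers of the hypodermis summed to 63.8 to 99.4 CPM in all 14 libraries, but singly they moved both ways: in rIIS-C over skn-1i, 3 were higher (che-14, nhr-25 and elt-1, at 0.95 to 3.04) and 2 lower (dpy-7 at -2.14 and lin-26 at -0.55). Markers of body wall muscle summed to 9758 to 10632 CPM in skn-1i and 7061 to 7581 CPM in hsf-1i (HS), against 895 to 1300 CPM in rIIS-C and 2029 to 2455 CPM in rIIS-C (HS). Intestinal markers, yolk protein genes among them, summed to 71138 to 101073 CPM in those RNAi groups and 15521 to 54208 CPM in the other 10 libraries. The rIIS-C replicates were themselves far apart, at 43640 and 15521 CPM for intestinal markers and 4653 and 2433 CPM for germline markers. Neuronal markers summed to 418 to 509 CPM in the same RNAi groups and 113 to 227 CPM elsewhere, and germline markers to 2288 to 4653 CPM throughout. Sperm markers summed to 326 and 329 CPM in hsf-1i (HS) and 126 to 245 CPM in the other groups. In rIIS-C over skn-1i they moved both ways, with spe-11 at 3.62, spe-26 at 2.98 and gsp-3 at -1.32. Markers of the early embryo were near 0, at 0.075 to 3.33 CPM.

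Most of the members were well expressed. By RPKM, in which reads are scaled to gene length as well as library size so that genes can be set side by side, the order in C was kynu-1 (160 ± 3.49), hpd-1 (153 ± 12), fah-1 (143 ± 14.8), tdo-2 (109 ± 0.0895), hgo-1 (79.7 ± 4.97), tatn-1 (72.6 ± 0.0148), haao-1 (68.4 ± 4.59), kmo-1 (18.4 ± 0.269) and nkat-1 (0.752 ± 0.0506; all SD, n = 2). Neighbors among the first 3 did not differ beyond their spread, nor did tatn-1 and haao-1, whereas kmo-1 was several fold below its route and nkat-1 was barely detected. With 1 to 16 reads per library, nkat-1 values carry a large counting error.

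**Figure D1:**
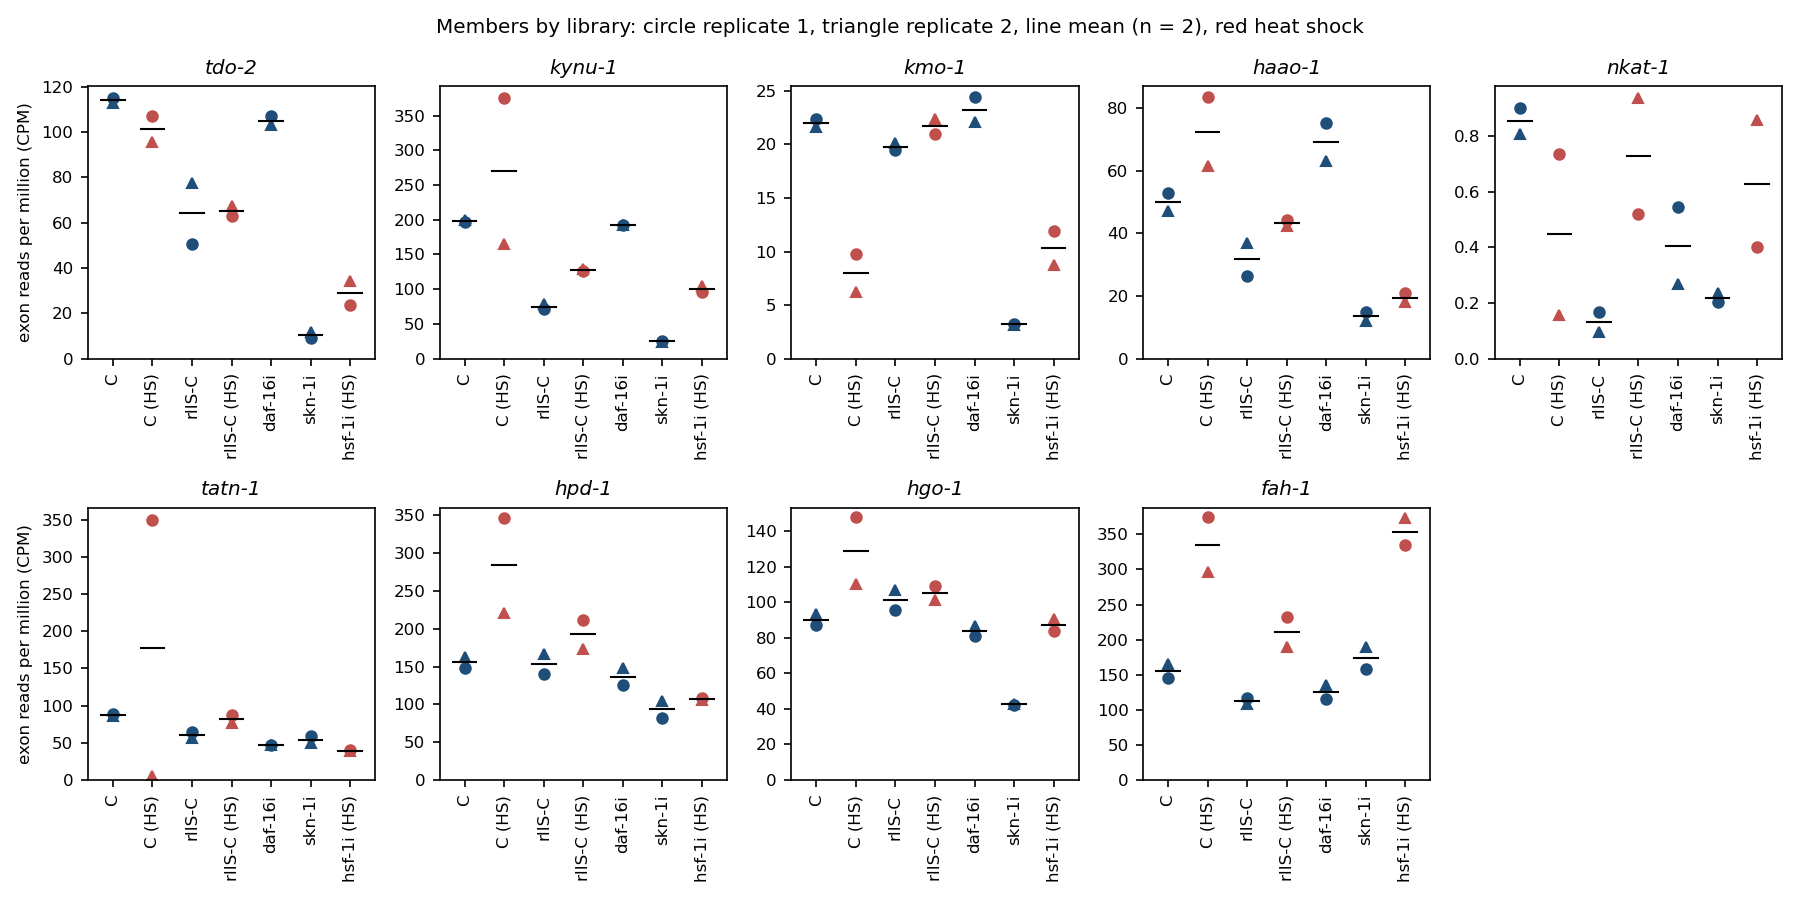
Levels of the 9 members in CPM (exon reads scaled to library size, linear axes from 0) in the 14 libraries, by group, with circles for replicate 1, triangles for replicate 2, a line at the mean (n = 2) and heat-shocked groups in red. The tryptophan route members (the panels of the top row) other than nkat-1 are lowest or near lowest in skn-1i, and the C (HS) replicates of tatn-1 lie at 349 and 5.23 CPM.

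To see how reduced insulin signaling alters the routes, rIIS-C was compared with C at 20 °C. Of the 9 members, 5 were repressed and 0 activated, where 6.54% of all tested genes were lower and 4.46% higher at the same threshold (adjusted p under 0.05, edgeR). The repressed members were tdo-2, kynu-1, haao-1 and nkat-1 of the tryptophan route and tatn-1 of the tyrosine route. The median log2 fold change of the tryptophan route was -0.82 and that of the tyrosine route -0.24, against 0.06 over all genes. At an unadjusted p under 0.05, fah-1 was lower as well.

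The kynureninase gene kynu-1 had the smallest adjusted p. Its level was 197 and 200 CPM in the C replicates and 71.1 and 78.1 CPM in rIIS-C, a 2.66-fold difference with groups far apart (log2 fold change -1.41, SE 0.13, adjusted p = 6.49e-05). This call remained in every alternative setting tried. The first enzyme, tdo-2, was at 115 and 113 CPM in C and 50.7 and 77.4 CPM in rIIS-C. The rIIS-C replicates of tdo-2 were themselves 1.53-fold apart, and its change was smaller and less certain (-0.82, SE 0.22, adjusted p = 0.0318).

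Further along, haao-1 stood at 52.7 and 47.1 CPM in C and 26.3 and 37 CPM in rIIS-C (-0.64, SE 0.18, adjusted p = 0.0471), close to the threshold. The middle step kmo-1 was flat, with 22.4 and 21.6 CPM in C and 19.5 and 20.1 CPM in rIIS-C (-0.14, SE 0.16, adjusted p = 0.65). The side branch gene nkat-1 had 12 and 16 reads in C and 1 and 2 reads in rIIS-C, so that its log2 fold change of -2.77 (SE 0.68, adjusted p = 0.022) rests on very few reads. Of the 4 well-expressed genes of the route, kmo-1 alone did not pass.

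In the tyrosine route the aminotransferase was lower and the ring-opening enzymes did not pass. The aminotransferase gene tatn-1 went from 88.1 and 86.7 CPM to 65.2 and 56.3 CPM (-0.53, SE 0.15, adjusted p = 0.0403). The groups were apart, but the call was lost in 9 of 16 alternative settings. Of the tryptophan calls, that of haao-1 was lost in 10 of 16, of tdo-2 in 8 of 16 and of nkat-1 in 5 of 14. The dioxygenase gene hpd-1 overlapped between groups, at 148 and 163 CPM in C and 140 and 166 CPM in rIIS-C. For hgo-1 the values were 87 and 93.6 CPM against 95.4 and 107 CPM (0.17, adjusted p = 0.493). The last enzyme, fah-1, had 145 and 165 CPM in C and 117 and 109 CPM in rIIS-C (-0.46, SE 0.17, adjusted p = 0.111), and it was called lower in 2 of the alternative settings (the exon length trend removed, and a block on the low- and high-junction sets).

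All 5 calls had the same sign within the low-junction and the high-junction libraries described above. Those pairs consist of the libraries that gave the calls, so the shared sign is not separate evidence. The members kmo-1, hgo-1 and fah-1, which were not called, also kept their sign in both pairs. For kynu-1 the log2 ratio was -1.47 in the low-junction and -1.36 in the high-junction pair, while for tdo-2 it was -1.18 and -0.55, and for haao-1 it was -0.35 in the high-junction pair. The count of 5 rested on having both C libraries: without either C replicate only kynu-1 passed, and without either rIIS-C replicate 3 members did (kynu-1, nkat-1 and tatn-1 without replicate 1, and tdo-2, kynu-1 and haao-1 without replicate 2).

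Next, the dependence of these genes on DAF-16 was examined by comparing rIIS-C with daf-16i, in the same daf-2 background. Both of the members past the test were lower in rIIS-C than in daf-16i, and 0 were higher, with 3.29% of all genes lower and 2.78% higher. On daf-16i, kynu-1 stood at 193 and 193 CPM against 71.1 and 78.1 CPM in rIIS-C (-1.37, SE 0.13, adjusted p = 9.73e-05), and haao-1 at 75.1 and 63 CPM against 26.3 and 37 CPM (-1.11, SE 0.18, adjusted p = 0.00372). For tdo-2 the daf-16i replicates, 107 and 103 CPM, were also above those of rIIS-C, with a change of -0.70 that missed the threshold (SE 0.22, adjusted p = 0.0901) but passed it in 5 of 16 alternative settings, among them DESeq2 (adjusted p = 0.0458) and a fit that blocks on the low- and high-junction sets (0.0146). These values can be set beside C: kynu-1 in daf-16i differed from C by a log2 of only -0.04 (SE 0.13, adjusted p = 0.997).

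Of the 4 tyrosine genes 0 passed between rIIS-C and daf-16i, and hpd-1 and fah-1 overlapped between the groups. The level of tatn-1 in daf-16i was 47.6 and 46.9 CPM (0.36 for rIIS-C over daf-16i, SE 0.15, adjusted p = 0.21). Against C, tatn-1 was the 1 member that changed in daf-16i, at -0.88 (SE 0.15, adjusted p = 0.00922), where 1.21% of all genes were lower and 0.382% higher, and 0 members were higher. That call was lost without any single one of the 4 libraries compared. The comparisons of rIIS-C and of daf-16i with C share the C libraries, and rIIS-C is shared by the comparisons with C, daf-16i and skn-1i, so their values are not independent.

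Of the RNAi comparisons, that with skn-1i gave the largest differences among the members. In rIIS-C relative to skn-1i, 6 members were activated, tdo-2, kynu-1, kmo-1, haao-1, hpd-1 and hgo-1, and 1 (fah-1) was repressed. Here the background was high, with 30.6% of all genes higher and 25.7% lower, so that a count of calls says little by itself. Without skn-1i replicate 2, the library with the high intron share, the 6 higher calls remained (log2 fold changes of 0.89 to 2.85) and that of fah-1 was lost (-0.49, adjusted p = 0.0819). The median log2 fold change was 1.59 in the tryptophan route and 0.43 in the tyrosine route, against 0.13 over all genes.

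The steepest change was that of the first tryptophan enzymes. For tdo-2 the level was 50.7 and 77.4 CPM in rIIS-C and 8.92 and 11.9 CPM in skn-1i, 6.14-fold apart in the means (2.61, SE 0.25, adjusted p = 8.09e-06). The kynurenine monooxygenase gene kmo-1, which did not pass between C and rIIS-C, dropped from 19.5 and 20.1 CPM to 3.24 and 3.16 CPM (16 and 27 reads), 6.19-fold (2.63, SE 0.20, adjusted p = 2.27e-06). All libraries of these genes were separated by more than the whole range within either group. For kynu-1 the skn-1i replicates were at 25.8 and 24 CPM (1.59, SE 0.14, adjusted p = 5.48e-06), and for haao-1 at 15 and 12.1 CPM (1.25, SE 0.20, adjusted p = 3.15e-04). In these same libraries nkat-1 had 1 and 2 reads, as few as in rIIS-C, and gave no usable comparison (adjusted p = 0.487).

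In the tyrosine route hgo-1 fell to 42 and 43 CPM in skn-1i from 95.4 and 107 CPM (1.25, SE 0.14, adjusted p = 2.5e-05). The enzyme before it, hpd-1, stood at 82.3 and 105 CPM against 140 and 166 CPM (0.70, SE 0.18, adjusted p = 0.00571). The aminotransferase gene tatn-1 overlapped between the groups, with 59.2 and 49.3 CPM in skn-1i (0.16, SE 0.15, adjusted p = 0.378). In contrast, fah-1 was at 158 and 189 CPM in skn-1i and 117 and 109 CPM in rIIS-C (-0.63, SE 0.17, adjusted p = 0.00833), but this direction flipped to 0.39 on the RPKM scale, on which the median of all genes moved from 0.13 to 0.86. On either scale fah-1 lay below the median of all genes.

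**Figure D2:**
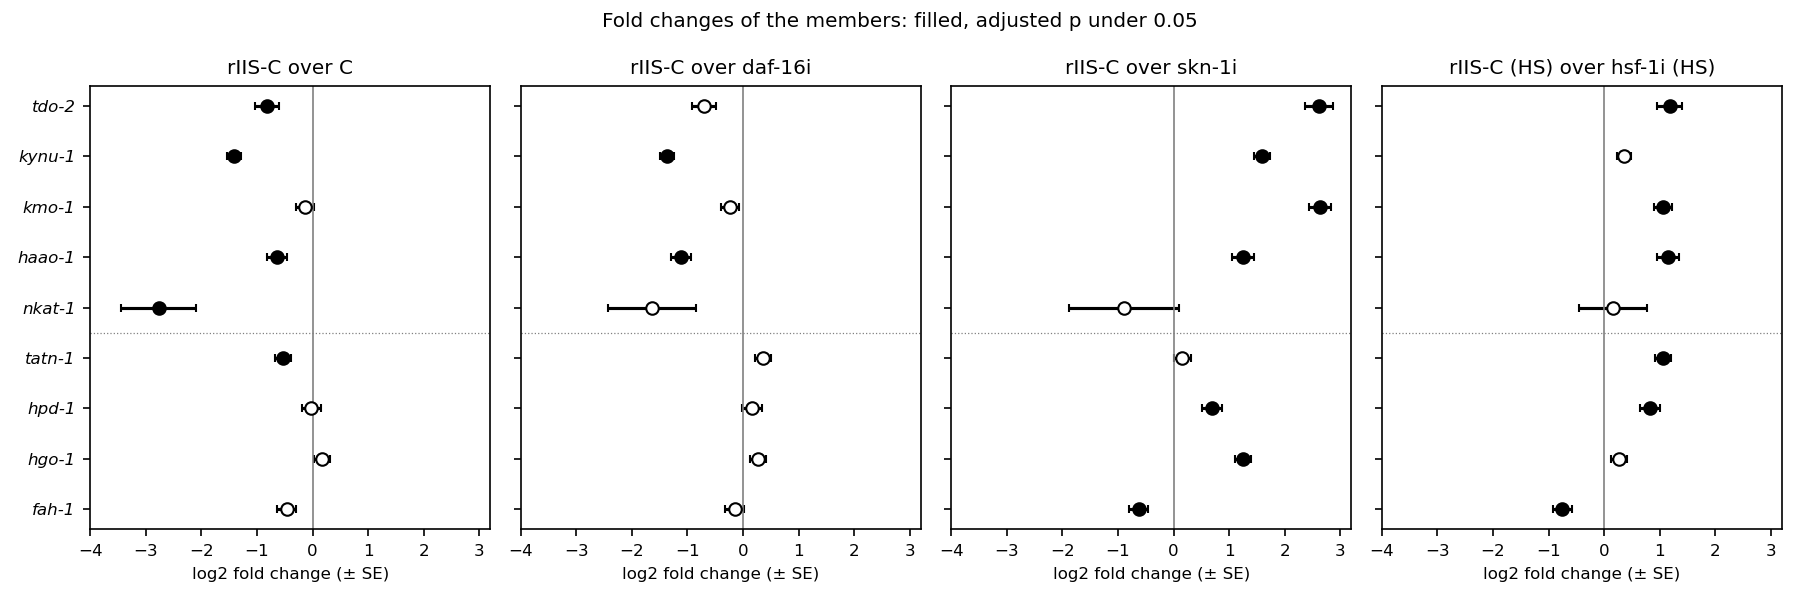
Log2 fold changes (± SE, x axis) of the 9 members in rIIS-C over C, rIIS-C over daf-16i, rIIS-C over skn-1i and rIIS-C (HS) over hsf-1i (HS), filled where the adjusted p was under 0.05, with the tryptophan route above the dotted line. The tryptophan route lies left of 0 in the first panels and, except nkat-1, right of 0 against skn-1i. There tdo-2 and kmo-1 reach 2.61 and 2.63, while fah-1 lies at -0.63 and -0.75 in the last panels.

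The part played by HSF-1 was addressed after heat shock, in rIIS-C (HS) over hsf-1i (HS). In rIIS-C (HS), 5 members were activated, tdo-2, kmo-1, haao-1, tatn-1 and hpd-1, and 1, again fah-1, was repressed, with 19.3% of all genes higher and 18.8% lower. For tdo-2 the values were 62.9 and 67.5 CPM against 23.6 and 34.1 CPM in hsf-1i (HS) (1.18, SE 0.23, adjusted p = 0.00201). For kmo-1 they were 21 and 22.4 CPM against 11.9 and 8.74 CPM (1.06, SE 0.17, adjusted p = 7.85e-04), and for haao-1 44.3 and 42.4 CPM against 20.9 and 18 CPM (1.15, SE 0.19, adjusted p = 9.1e-04). These 3 genes of the tryptophan route kept their calls in all 16 alternative settings. The change of kynu-1, 126 and 129 CPM against 95.7 and 104 CPM, was small and just missed the threshold (0.36, SE 0.13, adjusted p = 0.0535). It passed in 5 of 16 alternative settings, among them the block on junction sets (adjusted p = 0.025) and the RPKM scale.

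The aminotransferase gene tatn-1, which overlapped in the skn-1i comparison, was at 88 and 76.4 CPM in rIIS-C (HS) and 39.7 and 39.1 CPM in hsf-1i (HS) (1.06, SE 0.15, adjusted p = 3.17e-04). Its product feeds hpd-1, at 212 and 173 CPM against 109 and 106 CPM (0.83, SE 0.18, adjusted p = 0.00357). The next gene, hgo-1, was at 109 and 101 CPM against 83.8 and 90.7 CPM and did not pass (0.27, SE 0.14, adjusted p = 0.152). At the end of the route fah-1 was at 232 and 189 CPM in rIIS-C (HS) and 335 and 373 CPM in hsf-1i (HS) (-0.75, SE 0.17, adjusted p = 0.00464), a direction that was lost on the RPKM scale (0.03, where the median of all genes was 0.62). The skn-1i and hsf-1i (HS) groups are also those in which the muscle, neuronal and intestinal markers were high, and the part of this in the members' values was not tested. Those sums rest on abundant genes, and not every marker followed them. In rIIS-C over skn-1i and in rIIS-C (HS) over hsf-1i (HS), 4 of 5 muscle markers were lower in both, 6 and 4 of 9 intestinal ones were lower while pept-1 was higher (0.73 and 0.72), and 3 and 4 of 6 neuronal ones were lower, with unc-31 higher over skn-1i (1.04). In whole worms, fewer cells of a type and less RNA per cell cannot be told apart.

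Because a library's scaling cancels within it, the members were also expressed as shares of their own summed RPKM. The 5 tryptophan genes made up 45.7 and 43% of the sum in C, 29.2 and 33.6% in rIIS-C, 52.9 and 48.2% in daf-16i, and 14.4 and 12.3% in skn-1i. In the heat-shocked groups the shares were 32.3 and 34.7% in C (HS), 29 and 33.1% in rIIS-C (HS) and 21% in both hsf-1i (HS) libraries. Thus daf-16i stood above both C libraries, and skn-1i below all others. The share of fah-1 was 16.9 and 18.6% in C, 19.9 and 16.5% in rIIS-C, 39.8 and 42.9% in skn-1i and 46.7 and 48.5% in hsf-1i (HS), so fah-1 was the most abundant of the 9 in skn-1i and hsf-1i (HS). It also ranked first in C (HS) (21.1 and 30.1%) and, just above hpd-1, in rIIS-C (HS) (25.7 and 23.5%). The ratio of fah-1 to tdo-2 by RPKM was 1.22 and 1.41 in C, 2.23 and 1.35 in rIIS-C and 17 and 15.3 in skn-1i. After heat shock it was 3.37 and 2.98 in C (HS), 3.55 and 2.71 in rIIS-C (HS) and 13.7 and 10.6 in hsf-1i (HS). Its ratio to hgo-1, the preceding enzyme but for an isomerase, was 1.28 and 1.06 in rIIS-C and 3.93 and 4.61 in skn-1i.

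**Figure D3:**
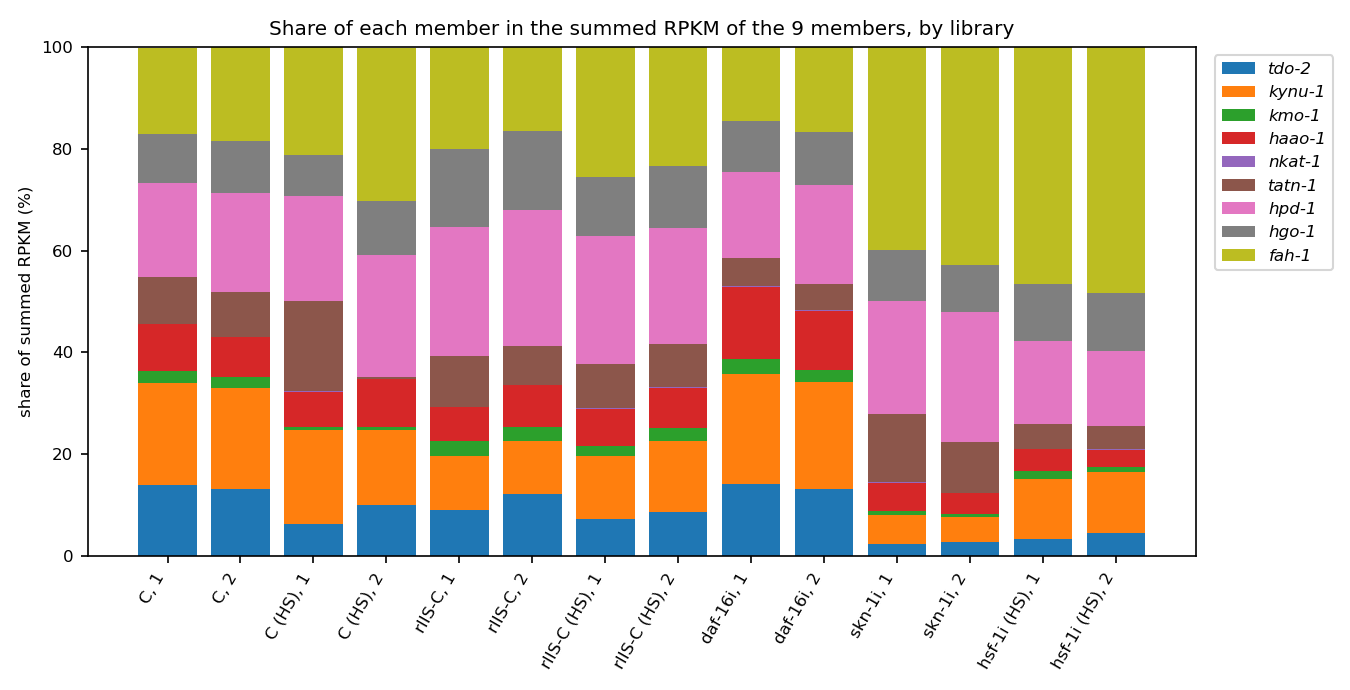
Share of each member in the summed RPKM of the 9 members (%, y axis), by library (group and replicate, x axis). The tryptophan genes at the bottom of the bars shrink to 14.4 and 12.3% in skn-1i, and the top segment, fah-1, widens to 46.7 and 48.5% in hsf-1i (HS).

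Heat shock itself was compared within each strain. In the control strain, C (HS) over C, 3 members were higher (hpd-1, hgo-1 and fah-1) and 1 lower (kmo-1), with 27.4% of all genes higher and 24.9% lower. The level of fah-1 went from 145 and 165 CPM to 375 and 296 CPM (1.11, SE 0.21, adjusted p = 7.66e-04), hpd-1 from 148 and 163 CPM to 347 and 221 CPM (0.86, SE 0.24, adjusted p = 0.00858) and hgo-1 from 87 and 93.6 CPM to 148 and 110 CPM (0.52, SE 0.19, adjusted p = 0.0386). These rises depended on the scaling: by RPKM, where the median of all genes was -0.78, hpd-1 was at -0.24, hgo-1 at -0.56 and fah-1 at 0.03, each above that median. The level of kmo-1 fell from 22.4 and 21.6 CPM to 9.81 and 6.18 CPM (-1.45, SE 0.25, adjusted p = 4.07e-04). This call held in all 15 alternative settings, though a scale that lowers all genes could not have removed a fall.

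In the daf-2 strain, rIIS-C (HS) over rIIS-C, fah-1 alone passed as higher, at 117 and 109 CPM before and 232 and 189 CPM after heat shock (0.90, SE 0.21, adjusted p = 0.0415), and 0 members were lower. Over all genes 1.89% were higher and 0.32% lower. That call was lost without any single one of the 4 libraries. For kmo-1 the heat-shocked replicates, 21 and 22.4 CPM, stayed near the 19.5 and 20.1 CPM of rIIS-C (0.13, SE 0.24, adjusted p = 0.835). Accordingly the heat shock response of kmo-1 differed between strains by the interaction term (1.58, SE 0.34, adjusted p = 0.00971). The other member past this test was nkat-1 (3.34, SE 1.11, adjusted p = 0.0494), with 12 and 16 reads in C, 11 and 2 in C (HS), 1 and 2 in rIIS-C and 8 and 7 in rIIS-C (HS). Both were higher and 0 lower, with 9.97% of all genes higher and 10.6% lower. The interaction, like every comparison with C (HS), rests on libraries whose junction shares (14.3 and 16.73%) lay between those of the other libraries. Heat shock of the control strain and this library difference cannot be told apart. Per the study's methods, some unhealthy rrf-3 animals were also seen after heat shock, and most were taken out by hand.

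After heat shock, rIIS-C (HS) was compared with C (HS), and only kmo-1 of the 8 tested members was called, as higher in rIIS-C (HS) (1.36, SE 0.36, adjusted p = 0.0297), with 10.4% of all genes higher and 14.5% lower and 0 members lower. Its values were 21 and 22.4 CPM in rIIS-C (HS) and 9.81 and 6.18 CPM in C (HS). The low counts of nkat-1 kept it out of this fit. The kmo-1 call was lost in 5 of 16 alternative settings. Among them were the edgeR fits with a block on junction sets (adjusted p = 0.071) and with the exon length trend removed (0.0527). Other members were lower without passing, as kynu-1 with 126 and 129 CPM against 375 and 165 CPM (-1.16, SE 0.39, adjusted p = 0.0608) and haao-1 with 44.3 and 42.4 CPM against 83.4 and 61.3 CPM (-0.81, SE 0.26, adjusted p = 0.0573).

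The C (HS) replicates disagreed strongly on some of these genes. For tatn-1, C (HS) replicate 1 held 5222 exon reads and replicate 2 held 66, or 349 and 5.23 CPM, and the reads across splice junctions were 356 and 1. This log2 difference of 5.81 was the largest of 7782 genes with a mean of at least 10 CPM in that group. Among the 25 genes with the largest such differences, 10 were named col, the cuticle collagens, which made up 1.16% of the genes ranked. The next of the members above that minimum was kynu-1 at 375 and 165 CPM (1.18). In the other 6 groups no member above it, which leaves out nkat-1 throughout and kmo-1 in skn-1i, differed between replicates by more than 0.60 on log2(CPM + 1). Hence the count of members in rIIS-C (HS) over C (HS) was 2 without C (HS) replicate 1 (kmo-1 and tatn-1, both higher) and 7 without replicate 2 (kmo-1 higher, and tdo-2, kynu-1, haao-1, tatn-1, hpd-1 and fah-1 lower). In C (HS) over C, tatn-1 was at -4.07 without replicate 1 and at 2.00 without replicate 2, so its heat shock response has no direction in these data.

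**Figure D4:**
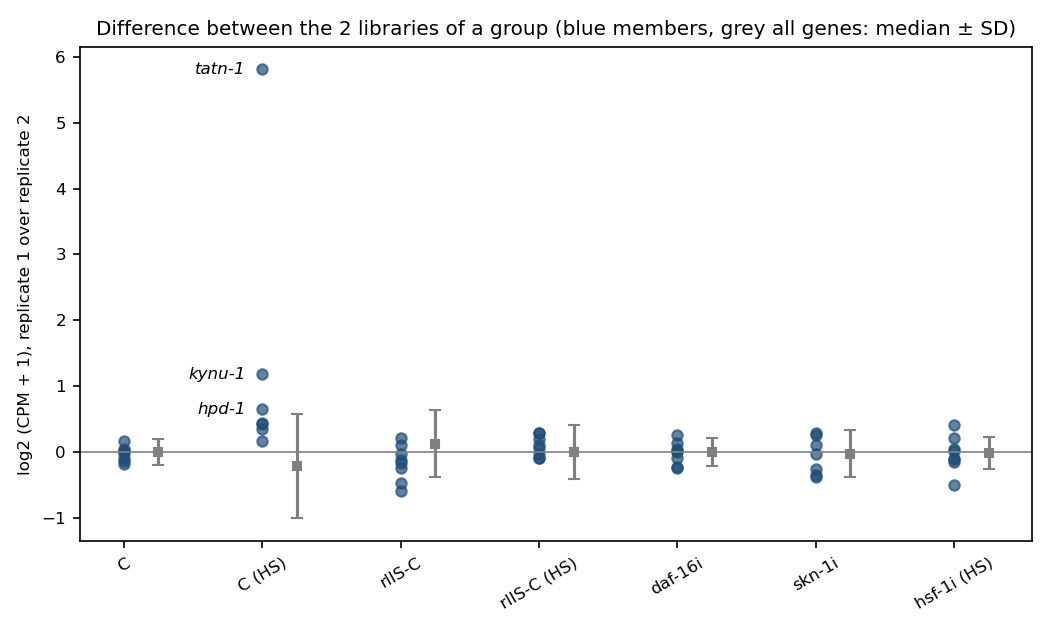
Log2 ratio of replicate 1 over replicate 2 of the members with a mean of at least 10 CPM in the group (blue, on CPM plus 1, y axis) in each of the 7 groups (x axis), with the median ± SD over all genes of at least 10 CPM in grey. In C (HS), tatn-1 at 5.81 and kynu-1 at 1.18 stand above the rest, while the members plotted for the other groups lie within 0.60 of 0.

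Across the 14 libraries tdo-2, kynu-1 and haao-1 varied together. Pearson's r of log2 CPM, given as a description of libraries that share groups and scaling, was 0.92 for tdo-2 with haao-1, 0.90 for tdo-2 with kynu-1 and 0.76 for tdo-2 with kmo-1 (0.95 without C (HS)). It was lower for kmo-1 with kynu-1 (0.62) and haao-1 (0.61) and for nkat-1 with the rest of its route (0.28 to 0.54). Nor did it follow the routes, since hgo-1 had an r of 0.82 with kynu-1 and 0.80 with tdo-2. In the tyrosine route hpd-1 and hgo-1 were alike (0.84), whereas fah-1 was unlike both (0.27 with each) and ran slightly against kmo-1 (-0.42). Among about 8031 genes with a mean of at least 10 CPM, the closest to hgo-1 were spds-1, the spermidine synthase gene (0.975), and gst-4, a glutathione S-transferase gene (0.974). The closest to tdo-2 was M7.7 (0.978), to kynu-1 T25B9.1 (0.972), to kmo-1 vps-34 (0.982), to haao-1 msra-1 (0.948), to hpd-1 Y53F4B.39 (0.958) and to fah-1 zig-12 (0.977). For tatn-1 it was C05C8.7 (0.959) and for nkat-1 haly-1 (0.815).

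The neighbors of the routes were described by fixed lists. Of 10 further genes of the kynurenine route and NAD synthesis, 9 were found by name and tested. Between rIIS-C and C 0 of the 9 passed in either direction, and likewise 0 between rIIS-C and daf-16i. Of all genes, 4.46% were higher and 6.54% lower in rIIS-C than in C, and 2.78% and 3.29% than in daf-16i. Over skn-1i, 1 was higher, the formamidase gene afmd-1 that follows tdo-2 (1.67, SE 0.33, adjusted p = 0.0012), and 4 were lower, among them nprt-1, a nicotinate phosphoribosyltransferase gene (-1.05, SE 0.20, adjusted p = 0.00116), and umps-1, which acts on quinolinic acid in worms (-0.84, SE 0.19, adjusted p = 0.00325). Over hsf-1i (HS), qns-1, the NAD synthase gene, was higher (0.84, SE 0.19, adjusted p = 0.00526) and umps-1 lower (-0.64, SE 0.19, adjusted p = 0.022). The shares of all genes were 30.6% higher and 25.7% lower over skn-1i, and 19.3% and 18.8% over hsf-1i (HS). On heat shock of the control strain 5 of the 9 were higher, among them the nicotinamidase gene pnc-1 (1.32, SE 0.23, adjusted p = 4.7e-04), and 1 was lower, qns-1 (-0.60, adjusted p = 0.0368). In that comparison 27.4% of all genes were higher and 24.9% lower. On heat shock of the daf-2 strain 0 of the 9 passed, with 1.89% of all genes higher and 0.32% lower.

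The pterin cofactor of aromatic amino acid hydroxylases is made and recycled by 4 genes of a second list. The GTP cyclohydrolase gene cat-4 was lower in rIIS-C than in C (-0.83, SE 0.15, adjusted p = 0.00345) and than in daf-16i (-1.21, SE 0.15, adjusted p = 4.02e-04). The gene of the following enzyme, ptps-1, was higher in rIIS-C than in skn-1i (1.52, SE 0.34, adjusted p = 0.00297) and in rIIS-C (HS) than in hsf-1i (HS) (1.73, SE 0.32, adjusted p = 0.00152), and qdpr-1, of the recycling reductase, was higher over skn-1i (0.63, SE 0.18, adjusted p = 0.0123). The other recycling gene, pcbd-1, went the other way over skn-1i (-0.96, SE 0.22, adjusted p = 0.00305). On the tyrosine side gst-42, the maleylacetoacetate isomerase gene between hgo-1 and fah-1, was higher in rIIS-C than in skn-1i (0.62, SE 0.22, adjusted p = 0.0294), where hgo-1 was higher too and fah-1 was not. Of 6 genes of monoamine synthesis and breakdown, 5 were tested. The monoamine oxidase gene amx-2 was lower in rIIS-C than in C (-0.78, SE 0.17, adjusted p = 0.0119), daf-16i (-1.05, adjusted p = 0.00312) and skn-1i (-1.59, adjusted p = 2e-05), and tbh-1, of octopamine synthesis, was higher in rIIS-C than in C (0.55, SE 0.14, adjusted p = 0.0318) and skn-1i (0.90, adjusted p = 3.36e-04). Over these 19 neighbors, 1 was higher and 2 lower in rIIS-C over C, where 4.46 and 6.54% of all genes were, and 6 were higher and 6 lower in rIIS-C over skn-1i, near the 30.6 and 25.7% of all genes.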

How the data were processed

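RNA of whole worms was sequenced by the authors after TruSeq RNA v2 library preparation, which does not mark strand. Per the submitters' processing notes base calls came from CASAVA 1.8.2, and per the study's methods reads were aligned to WBcel235 in CLC Genomics Workbench. The deposited values are counts of exon reads per gene, not normalized, and RPKM values that the authors computed for gene length and mapped reads. The counting rule for strand is not given in the sources used here. Unnamed columns with values, 4 in all, were not used.

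Counts were fitted in edgeR 4.0.16 (R 4.3.3), after filterByExpr and TMM scaling, by the quasi-likelihood test with 1 coefficient per group, and p-values were adjusted by Benjamini-Hochberg over all genes tested. The fit without C (HS) (12 libraries) served the 20 °C and RNAi comparisons, the 6 heat-shocked libraries gave rIIS-C (HS) over C (HS), and all 14 gave the heat shock responses and their interaction. C (HS) was left out of the first fit because its mapped share in the study's sample details stood apart. With all 14 libraries in that fit, 1 member instead of 5 passed in rIIS-C over C. CPM values used TMM factors of all 14 libraries. Genes called had an adjusted p under 0.05. The 9 members are named (1 further gene is not reported here), and of each list at most 3 called genes per comparison by absolute log2 fold change. The members and lists were chosen with earlier results of these data known. Groups came from the sample labels. The study's methods call the replicates biological, but the labels do not name separate cultures, and p-values measure the spread between these libraries. The replicate numbers were not taken to pair samples (r of deviations from -0.334 to 0.291 over pairs of groups, and 0.179 to 0.291 among the 20 °C groups). By junction set instead of number, r was 0.092 to 0.334 in every pair without C (HS). The scripts were tested on simulated data. Alternatives were DESeq2 1.42.0, limma 3.58.1 on log2(RPKM + 1) or log2(RPKM + 0.1), other scaling, filters, blocks and library sets. The junction batch block split libraries at a junction share of 19.65%, which put both C (HS) libraries in the low-junction set.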

Additional observations from a re-analysis of the deposited data

Results flagged for a closer look

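The heat shock response of 2 members differed between the rIIS-C and C strains by the interaction term of the edgeR quasi-likelihood fit. In this term the strain cannot be told apart from the junction share of the C (HS) libraries. For kmo-1 the difference was 1.58 on the log2 scale (SE 0.34, adjusted p = 0.00971), and it was 1.96 without C (HS) replicate 1 and 1.29 without C (HS) replicate 2. For nkat-1 it was 3.34 (SE 1.11, adjusted p = 0.0494), on 1 to 16 reads per library, and it missed the threshold in 12 of 16 alternative settings.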

How the results depend on the processing

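Of 29 called member results, 12 kept their call in every alternative setting: kynu-1 in rIIS-C over C, daf-16i and skn-1i, tdo-2, kmo-1, haao-1 and hgo-1 over skn-1i, tdo-2, kmo-1, haao-1 and hpd-1 over hsf-1i (HS), and kmo-1 in C (HS) over C. The 17 others lost it in at least 1. Direction reversed in 25 recomputed member values. These include results that were not called, such as tdo-2 in rIIS-C (HS) over C (HS).

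In rIIS-C over C the count of 5 became 6 with the junction batch block and with the exon length trend removed (fah-1 gained), 3 with unique exon reads, 1 with all 14 libraries, 1 by limma on log2(RPKM + 1) or log2(RPKM + 0.1), 2 by limma with no filter and 2 with the compared groups only, and it ranged from 1 to 3 without single libraries. In rIIS-C (HS) over C (HS) the count of 1 became 2 with no low-count filter, 0 with the junction batch block, 2 with the exon length trend removed, 4 with all 14 libraries, 2 by DESeq2 and 0 with the compared groups only, and ranged from 0 to 7 without single libraries. In rIIS-C over daf-16i the count of 2 became 1 by all limma fits and with the compared groups only, and 3 (tdo-2 gained) with no low-count filter, the junction batch block, the length trend removed, DESeq2 and without rIIS-C replicate 2. In daf-16i over C the count of 1 became 0 with all 14 libraries, by limma on log2(RPKM + 0.1), by limma with no filter, and without any single library (0 to 0). In C (HS) over C the count of 4 became 2 with the compared groups only and ranged from 2 to 7 without single libraries. In rIIS-C (HS) over rIIS-C the count of 1 became 0 by all limma fits, with the compared groups only and without any single library. In the interaction the count of 2 became 1 with no low-count filter, with the length trend removed, with unique exon reads, by DESeq2 and by limma on log2(RPKM + 1) or log2(RPKM + 0.1), 0 with the compared groups only, and 1 to 4 without single libraries. In rIIS-C (HS) over C (HS) with the exon length trend removed, the 2 called were kynu-1 and fah-1, both lower, and kmo-1 was lost. The causes of these changes in count were not tested, apart from fewer libraries where some were left out.

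With the replicate number as a block (replicate block) the count was 4 in rIIS-C over C, 3 in C (HS) over C, 0 in rIIS-C (HS) over rIIS-C and 1 in the interaction. It was as before in the 5 other comparisons. The numbers were not taken to pair samples, as those of rIIS-C (HS) ran against the junction sets.

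On the RPKM scale (limma, both pseudocounts and no filter) fah-1 reversed to 0.39 to 0.40 over skn-1i and 0.03 over hsf-1i (HS). In rIIS-C (HS) over C (HS), tdo-2 was 0.22, haao-1 0.14 and fah-1 0.19. In C (HS) over C, tatn-1 was -1.84 or -2.07, hpd-1 -0.24 and hgo-1 -0.56 or -0.57, and tatn-1 was -4.07 without C (HS) replicate 1. The RPKM scale moved the median of all genes to 0.86 over skn-1i, 0.62 over hsf-1i (HS), 0.69 in rIIS-C (HS) over C (HS) and -0.78 in C (HS) over C. Depth limited nkat-1 most, at 1 to 16 reads per library, and kmo-1 had only 16 and 27 reads in the skn-1i libraries.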
